A study of Mus musculus with 8 samples.

Results

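The genes described here are those that the array's own annotation names Zfp followed only by a number, the mouse symbol for "zinc finger protein", with Zfp36 left out. They comprised 481 of 41174 non-control probes and 251 of 27745 gene names. Of the 251 names, 228 had, in 1 group or both, a probe well above background on every array, and could be tested, among 16139 genes tested in all. The remaining 23 were not tested, and 21 of those were not well above background on any array. The label "transcription factor" does not hold for every name, since some encode ubiquitin ligases. Of the 251 names, 26 now carry another symbol or match none in RefSeq. A changed symbol does not by itself say what the protein does: Zfp161 and Zfp238, for example, are now Zbtb14 and Zbtb18.

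RNA of IMCD3, a mouse kidney cell line of inner medullary collecting duct origin, was compared on 2-colour Agilent arrays with 60-base probes. Starved cells had been without fetal calf serum for 48 h, which makes this line grow primary cilia, and unstarved cells were kept in 10% serum, had been diluted 1:10 on the previous day and were not yet confluent. Serum and cell density therefore changed together and cannot be told apart. The 8 samples, 4 per group, were hybridised as starved and unstarved pairs on 4 arrays, and the title of the series sets the comparison within a search for effectors of FOXJ1, a regulator of motile cilia. By the labels, arrays 1 and 3 belong to replicate 1 with starved RNA in Cy5, and arrays 2 and 4 to replicate 2 with starved RNA in Cy3. Dye orientation and replicate therefore cannot be told apart, although the series text speaks of a dye swap within each pair. Of the epithelial markers checked, 10 of 10 were above background on every array, as were 0 of 6 fibroblast and 0 of 4 endothelial markers (Tek was so on 3), and 4 of 5 leukocyte markers (Ptprc, Cd14, Cd68 and Csf1r, but not Lyz2) were so in at least 1 group; their part in the results was not tested.

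Most proteins of this name carry tandem C2H2 zinc fingers, small folds held by a zinc ion that each read a few bases of DNA. In many of them a KRAB domain recruits TRIM28 and the histone methyltransferase SETDB1, which silence chromatin, often at retroviral repeats. Such genes arose by repeated duplication and lie in clusters on mouse chromosomes, so neighbours are often close relatives.

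One of the genes described, Zfp143, encodes the activator whose site includes the core ACTACA, any 2 bases and then TCC, and this core was common among the promoters of the others. The core, like the distance that defines a gene cluster further on, was chosen after the data were seen. RefSeq (GRCm38.p6) gave a window of 250 bases upstream of the start for 202 of the 251 names. The core, searched on both strands, was present in 37 of these 202 windows (18.3%), or in 36 of 201 when Zfp817 and Zfp58, which map to the same gene, are counted once. It was present in 1.96% of 27025 promoter windows of all genes and in 2.56% of those of other protein-coding genes. Matches lay 14 to 180 bases upstream of the start (median 55), and 27 of 37 were within 100 bases. Of 32 tested genes with the core 4 (12.5%) passed the test of starved against unstarved cells described further on. The share was 16.2% of tested genes whose window lacked the core and 31.8% of all genes. The windows below are from 8 neighbouring genes on chromosome 7 and from Zfp273 on chromosome 13, 9 genes chosen to include those 4. Each runs 5′ to 3′ on the strand of its gene, the match and up to 20 bases on either side are shown, and capitals mark the match, read as ACTACA or, in the opposite orientation, as the reverse complement ending in TGTAGT.

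Zfp84 (chr7:29768510-29768551, plus strand): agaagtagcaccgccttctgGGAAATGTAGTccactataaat

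Zfp420 (chr7:29859900-29859950, plus strand): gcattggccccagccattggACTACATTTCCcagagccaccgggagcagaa

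Zfp383 (chr7:29908456-29908506, plus strand): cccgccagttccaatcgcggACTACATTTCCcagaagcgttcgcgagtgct

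Zfp74 (chr7:29954085-29954135, minus strand): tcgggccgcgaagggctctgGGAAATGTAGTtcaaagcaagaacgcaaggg

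Zfp14 (chr7:30051397-30051430, minus strand): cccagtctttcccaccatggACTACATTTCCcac

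Zfp566 (chr7:30090556-30090606, minus strand): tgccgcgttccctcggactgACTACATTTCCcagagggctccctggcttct

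Zfp260 (chr7:30095028-30095075, plus strand): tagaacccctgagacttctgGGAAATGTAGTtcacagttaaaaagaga

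Zfp146 (chr7:30169840-30169890, minus strand): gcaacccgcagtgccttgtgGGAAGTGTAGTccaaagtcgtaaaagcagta

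Zfp273 (chr13:67813730-67813780, plus strand): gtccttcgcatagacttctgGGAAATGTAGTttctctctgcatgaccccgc

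A match to these letters is a description and not evidence of binding. Zfp143 itself differed little, with log2 ratios of starved over unstarved cells of 0.31, -0.07, 0.33 and -0.07 on arrays 1 to 4, a mean of 0.12 ± 0.13 (SE, n = 2 replicates) and a limma adjusted p of 0.516. Its arrays split by replicate, with both arrays of replicate 1 above 0 and both of replicate 2 below. Zfp523, which encodes the close relative of Zfp143 known in humans as ZNF76, rose, with ratios of 0.53, 0.82, 0.54 and 0.80 on arrays 1 to 4 (mean 0.67 ± 0.13, adjusted p = 6.35e-04).

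In starved cells 35 of the 228 tested genes (15.4%) passed limma's test with loess normalization at a Benjamini-Hochberg adjusted p below 0.05, where 31.8% of all genes did. Of these, 26 were higher in starved cells (11.4%, against 18.3% of all genes) and 9 were lower (3.95%, against 13.5%). When array 1 was left out, more genes passed in both directions, 34 higher and 14 lower, and 34.3% of all genes passed. All 35 had the same sign on all 4 arrays, but the calls were made from these same arrays. A gene of mixed sign could hardly pass, so this is no separate support. The most raised was Zfp704 and the most lowered Zfp672, and these were the only 2 called genes with a change of at least 2-fold (0.877%, against 4.36% of all genes). RNA was pooled from whole dishes, so a lower level in every cell cannot be told apart from fewer cells with the transcript.

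With each array centred on its median and no loess, the other normalization examined, 0 of the 228 passed, and 1.54% of all genes did (0.824% higher and 0.719% lower). The smallest adjusted p among the 228 was then 0.182, for Zfp672, and at an unadjusted p below 0.05 there were 2 (0.877%, against 6.79% of all genes). In that scaling the 228 genes had a median log2 ratio of 0.38 in replicate 1 and -0.34 in replicate 2, and all genes tested had 0.25 and -0.40, so the arrays of opposite dye orientation were set apart for all genes. Centring over the tested probes only, an alternative added after the data were seen, gave 5 calls against 9.94% of all genes: Zfp704, Zfp608 and Zfp810 were higher, and Zfp672 and Zfp593 lower. All of the named calls below are from the loess fit.

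Zfp704 encodes a zinc finger protein related to Zfp395, and its probe lies at chr3:9410125-9410184 on the minus strand (mm8, the build of the array's coordinates). Its normalized log2 level was 14.60, 14.59, 14.62 and 14.60 in the starved samples of arrays 1 to 4, and 13.32, 13.41, 13.35 and 13.41 in the unstarved samples. The groups did not overlap, and the lowest starved sample stood more than 1 log2 unit above the highest unstarved one. The change was 2.35-fold (log2 ratio 1.23 ± 0.12 SE, n = 2, limma adjusted p = 7.44e-07), and a second probe gave 1.03. With median centring the ratio was 1.05 (adjusted p = 0.364).

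Zfp672 has its probe at chr11:58136000-58136059 on the minus strand (mm8). The level was 11.81, 11.72, 11.66 and 11.81 in the starved samples and 12.91, 12.87, 12.70 and 12.97 in the unstarved samples. Again the groups were apart on every array, although a single sign on all arrays was a condition for naming this gene and Zfp704. The transcript was 2.16-fold lower in starved cells (log2 ratio -1.11 ± 0.12, n = 2, limma adjusted p = 2.34e-06), its second probe gave -0.82, and median centring gave -1.20.

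**Figure D1:**
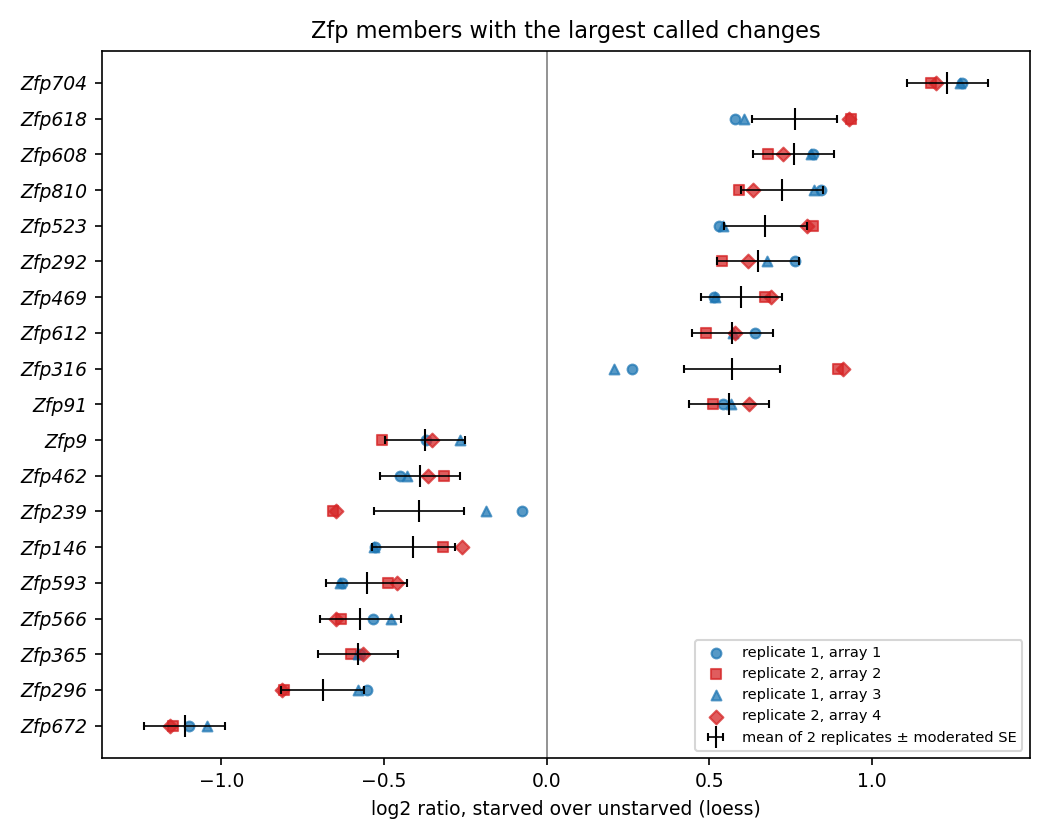
Log2 ratio of starved over unstarved cells after loess (x axis) for the 19 Zfp genes with the largest called changes (y axis), with a point per array, coloured by replicate, and black bars for the mean of 2 replicates ± the moderated SE. Zfp704 at 1.23 and Zfp672 at -1.11 stand apart from the rest, and the replicates of Zfp316 and Zfp239 are far from each other.

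Among the other genes that rose, Zfp618 gave 0.58, 0.94, 0.61 and 0.93 on arrays 1 to 4 (mean log2 ratio 0.76 ± 0.13, adjusted p = 2.39e-04). Its probes disagreed: another gave 0.49 and also passed when every probe was fitted (adjusted p = 0.0214), and the last one gave -0.26 and did not. The probe at 0.49 was above background on 4 starved and 3 unstarved arrays, so it was tested through the starved group only. Its replicates were far apart, at 0.85 and 0.14. Zfp608, described as a repressor of the Rag genes in developing T cells, gave 0.82, 0.68, 0.81 and 0.73 (mean 0.76 ± 0.12, adjusted p = 1.57e-04), and its other probe gave 0.61. Zfp810 gave 0.84, 0.59, 0.82 and 0.63 (mean 0.72 ± 0.13, adjusted p = 3.01e-04). The 4 arrays of each gene lay on the same side of 0, which was a condition for naming genes by size of change.

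Zfp292, a large protein described as a tumour suppressor, rose by 0.65 ± 0.12 on the log2 scale, with 0.72 in replicate 1 and 0.58 in replicate 2. Zfp612 rose by 0.57 ± 0.12 (0.61 and 0.53) and Zfp91, a ubiquitin ligase, by 0.56 ± 0.12 (0.55 and 0.57). The other tested probe of Zfp612 gave 0.17 and did not pass. The probe named Zfp469 on the array matches Tnrc18 in RefSeq and rose by 0.60 ± 0.12. The brightest probe of Zfp316 gave 0.26 and 0.21 on the arrays of replicate 1 and 0.90 and 0.91 on those of replicate 2. The mean of 0.57 ± 0.15 for this probe hides a gap between replicates larger than the rise in replicate 1. The other Zfp316 probe gave 0.49, with 0.47 in replicate 1 and 0.52 in replicate 2. It also passed when every probe was fitted (limma adjusted p = 0.00687). Of 4 tested probes of Zfp91, the other 3 gave 0.62, 0.27 and 0.23.

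The 16 remaining genes that passed in the upward direction had ratios from 0.36 to 0.56. In descending order they were Zfp53, Zfp367, Zfp598, Zfp291, Zfp414, Zfp740, Zfp273, Zfp650, Zfp536, Zfp62, Zfp688, Zfp219, Zfp313, Zfp14, Zfp212 and Zfp341, of which 13 are listed only because they passed (Zfp598, Zfp219 and Zfp313 were listed for their known functions). Other tested probes that did not pass gave 0.18 for Zfp367, 0.15 and 0.01 for Zfp650, 0.26 for Zfp62, 0.25 for Zfp219 and 0.23 for Zfp313. Another probe did pass, when every probe was fitted, for Zfp53, Zfp291, Zfp414, Zfp273 and Zfp688. Zfp291 is now Scaper, Zfp650 is Ubr3 and Zfp313 is Rnf114, the last 2 being ubiquitin ligases. Among these and the genes above, 6 called genes had replicates at least 0.5 apart on the log2 scale: Zfp316, Zfp53, Zfp740, Zfp14, Zfp219 and, among the lowered genes, Zfp239.

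Of the genes that fell, Zfp296, described in pluripotent cells as a partner of KLF4, gave -0.55, -0.81, -0.58 and -0.81 on arrays 1 to 4 (mean -0.69 ± 0.13, limma adjusted p = 4.79e-04), and its second probe gave -0.61. Zfp593, whose yeast relative takes part in export of the large ribosomal subunit, gave -0.63, -0.49, -0.63 and -0.46 (mean -0.55 ± 0.12, adjusted p = 0.00248), and its second probe gave -0.47. Every array was below 0 for both, as the naming rule required.

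Zfp566 gave -0.53, -0.63, -0.48 and -0.65 (mean -0.57 ± 0.12, adjusted p = 0.00188). Zfp146, a protein made almost wholly of zinc fingers, gave -0.53, -0.32, -0.53 and -0.26 (mean -0.41 ± 0.13, adjusted p = 0.0199). Its other 2 probes gave -0.25 and 0.11 and did not pass. Zfp462, a protein needed in embryonic stem cells to keep their identity, fell by 0.39 ± 0.12, and Zfp239 by 0.39 ± 0.14. The other tested probe of Zfp462 gave -0.22 and did not pass.

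Zfp365, which encodes a protein that binds DISC1, and Zfp9 were well above background on 4 of 4 arrays in unstarved cells and on 0 of 4 in starved cells. Only a lower bound of their fold can then be given, formed from the group means of normalized single-channel levels with the dim side held at the lowest signal above background. Zfp365 was at least 1.45-fold lower in starved cells (mean levels 6.90 starved and 7.48 unstarved, limma adjusted p = 0.00158). Zfp9 was at least 1.26-fold lower (6.95 and 7.32, adjusted p = 0.0286). Both passed the filter only through the unstarved group, where they were brighter, so these p values do not support a fall. With the filter required in both groups 7 of 224 genes were lower, against 13.1% of all genes. Zfp454 had the same pattern of detection, with a bound of 1.05-fold (adjusted p = 0.726), and Zfp114 was above background on 3 of 4 starved arrays; neither passed, and both are named for their detection only.

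Over all 228 genes the changes were small. The median log2 ratio was 0.08, against 0.01 for all genes tested, with a range from -1.11 to 1.23, and 149 ratios were above 0 and 79 below. The interquartile range was 0.29, against 0.43 for all genes, and 7.89% of the ratios were at least 0.5 from 0, against 18.6%. With median centring the medians were 0.03 and -0.08. No test was made of the list as such.

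**Figure D2:**
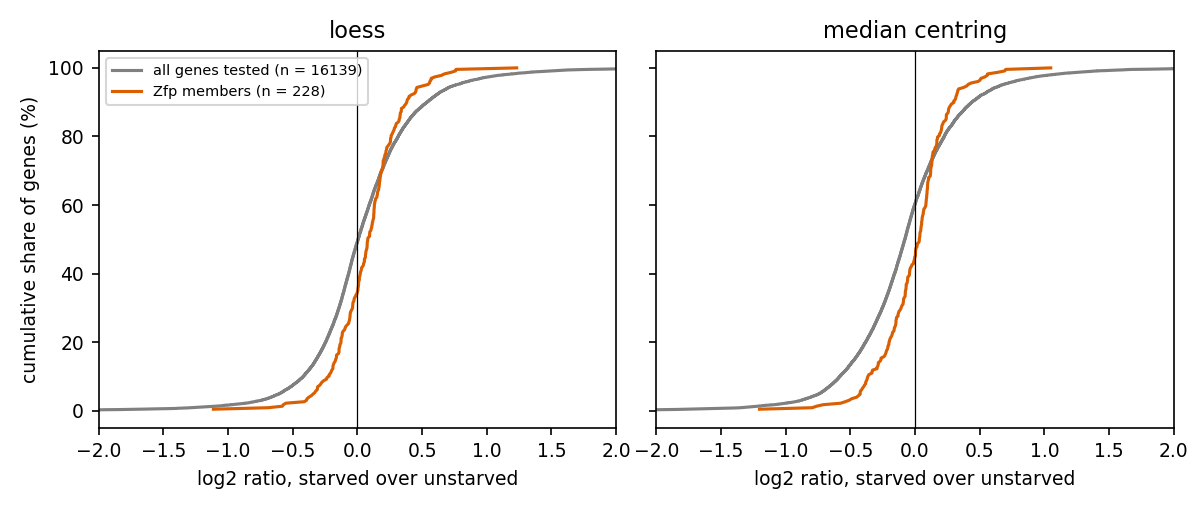
Cumulative share of genes (y axis, percent) by log2 ratio of starved over unstarved cells (x axis, shown from -2 to 2), for the 228 tested Zfp genes and all 16139 genes, after loess (left) and after median centring (right). In both panels the curve of the Zfp genes is steeper, with loess interquartile ranges of 0.29 and 0.43.

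Both replicates had the same sign in 142 of 228 genes (62.3%), against 74.9% of all genes. The median ratio was 0.13 in replicate 1 and 0.02 in replicate 2. Across the 228 genes, which share arrays and are not independent, Pearson's r between replicates was 0.55 and Spearman's rho 0.45; Pearson's r over all genes was 0.83. Of the 86 genes whose replicates had opposite signs, 60 were above 0 in replicate 1, and 0 of the 86 were called. The test uses the mean of the same replicates, so such genes could hardly pass.

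Zfp1, singled out after its values were seen, had the widest split, with ratios of 0.58 and 0.59 on arrays 1 and 3 and of -0.65 and -0.65 on arrays 2 and 4. Zfp651 was split the other way, with -0.12 and -0.11 on arrays 1 and 3 and 0.81 and 0.85 on arrays 2 and 4. In both, the 2 arrays of a replicate were close to each other and the replicates, which differ also in dye orientation, were apart.

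**Figure D3:**
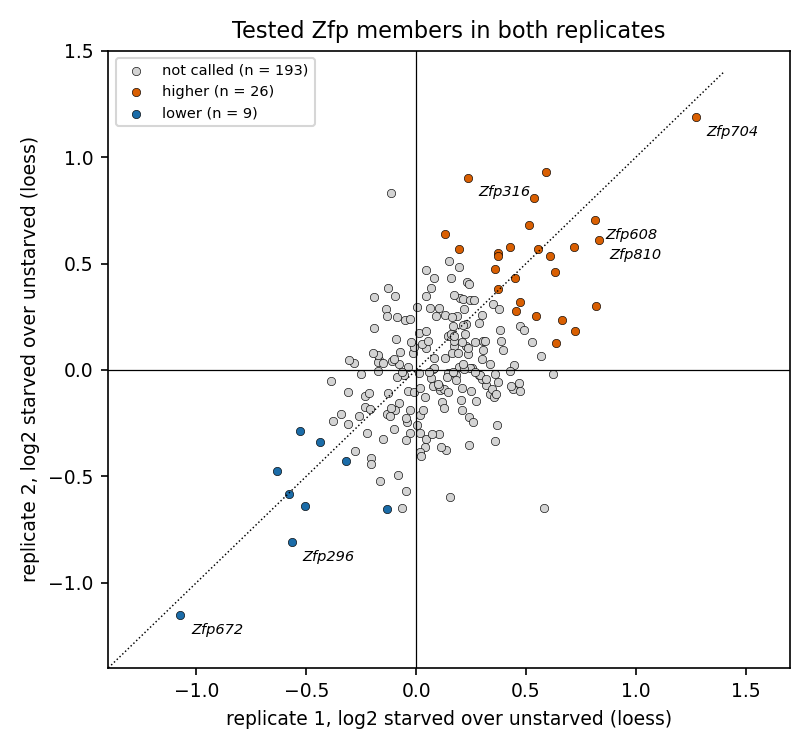
Mean log2 ratio of starved over unstarved cells after loess in replicate 1 (x axis) and replicate 2 (y axis) for each of the 228 tested Zfp genes, with 26 genes called higher, 9 called lower and 193 not called; the dotted line marks equal ratios. Called genes lie in the upper right and lower left, and many uncalled genes lie in the quadrants where the replicates have opposite signs.

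The share of genes called differed with the brightness of the probe. When all genes tested were divided into 3 equal classes by mean brightness, 7 of 72 Zfp genes were called in the dimmest class (9.72%), 14 of 98 in the middle class (14.3%) and 14 of 58 in the brightest class (24.1%). The shares of all genes were 27.1%, 36.4% and 31.8%. The median brightness was 11.22 log2 units for the Zfp genes and 11.70 for all genes, and its part in the counts was not tested beyond these classes.

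**Figure D4:**
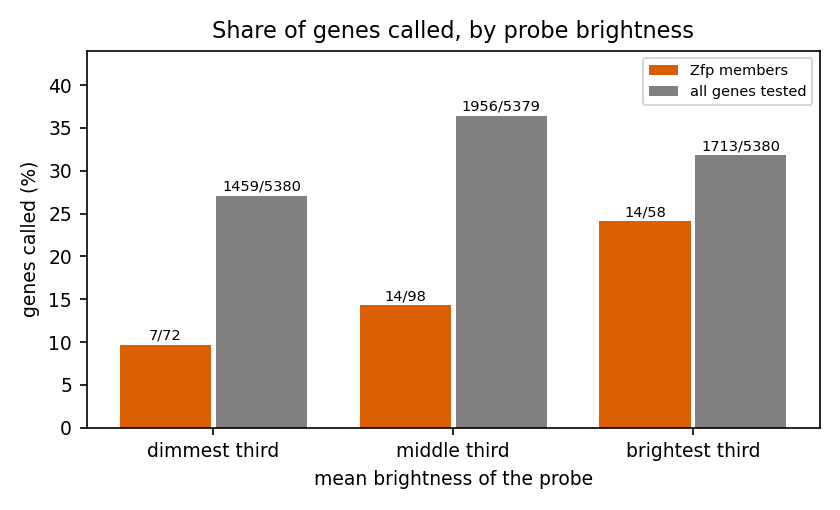
Share of genes called after loess (y axis, percent) in 3 classes of mean probe brightness (x axis), for the Zfp genes (orange) and all genes tested (grey), with the number called over the number tested above each bar. The Zfp bars are at 9.72%, 14.3% and 24.1% and those of all genes at 27.1%, 36.4% and 31.8%.

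Zfp genes with a function known apart from their number were looked at separately. Of 42 listed names 36 were matched on the array and 33 tested, and 5 of these passed, where 31.8% of all genes did: Zfp91, Zfp598, Zfp219 and Zfp313 were higher and Zfp462 lower. Of the other 28, 17 had loess ratios above 0 and 11 below. Zfp42, also called Rex1, a marker of embryonic stem cells, Zfp423, a factor of fat cell precursors, and Zfp750, a factor of epidermal differentiation, were not above background and were not tested.

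Among genes that act on ribosomes and their products, Zfp598, the ubiquitin ligase that senses collided ribosomes, gave 0.42, 0.60, 0.44 and 0.56 on arrays 1 to 4 (mean log2 ratio 0.50 ± 0.12, limma adjusted p = 0.00502). All arrays were above 0. Zfp294, now Ltn1, which marks stalled nascent chains, had a ratio of 0.17 ± 0.14 (adjusted p = 0.375), and Zfp622, a maturation factor of the large subunit, had -0.06 ± 0.13 (adjusted p = 0.767). Zfp259, now Zpr1, a partner of elongation factor eEF1A, had -0.27 ± 0.12 (adjusted p = 0.107).

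Among ubiquitin and SUMO ligases, Zfp313 gave 0.19, 0.58, 0.20 and 0.55 (mean 0.38 ± 0.13, adjusted p = 0.0343). Replicate 2 was again the higher one. Zfp364, now Rnf115, had 0.32 ± 0.13 (adjusted p = 0.0595). Zfp451, a SUMO ligase, had 0.18 ± 0.13 with its brightest probe (adjusted p = 0.321), and its other 3 probes gave -0.23, -0.45 and -0.48, so no direction can be given for the gene. Zfp179, now Rnf112, had -0.01 ± 0.12.

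Among regulators of transcription and chromatin, Zfp219, a cofactor of SOX9 in cartilage, gave 0.12, 0.63, 0.15 and 0.65 (mean 0.39 ± 0.14, adjusted p = 0.0411), with replicate 2 well above replicate 1. Zfp687 and Zfp592, which share a complex with ZMYND8, had 0.34 ± 0.13 (adjusted p = 0.0523) and 0.21 ± 0.12 (adjusted p = 0.211), and Zfp532 of the same complex had -0.06 ± 0.13. Zfp238, now Zbtb18, a repressor in neurons, had 0.33 ± 0.13 (adjusted p = 0.0656). None of these 4 passed.

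Ratios of 0.29 ± 0.13 and 0.28 ± 0.12 were measured for Zfp521, a factor of blood and fat progenitors, and Zfp503 (adjusted p = 0.0904 and 0.0970). Nearer to 0 were Zfp148 (0.09) and Zfp281 (-0.03), both of which bind GC-rich promoter sites, Zfp335 (0.09), Zfp217 (0.08), Zfp161, now Zbtb14 (-0.03), and Zfp410, an activator of Chd4 (0.00). Zfp809, which directs silencing of retroviruses, also had a ratio of 0.00, and Zfp57, which protects imprints, had -0.18 ± 0.12 (adjusted p = 0.301). The SE of each was between 0.12 and 0.13, and a p that misses the threshold does not show equal levels.

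Zfp318, which sets the splicing of the immunoglobulin delta transcript in B cells, had a ratio of 0.27 (adjusted p = 0.106), and Zfp326, a part of the DBIRD complex that links transcription with splicing, had -0.26 (adjusted p = 0.123). Zfp110 and Zfp369, both partners of the neurotrophin receptor p75, had 0.24 and 0.22. Zfp207, which binds kinetochores, had -0.12, and Zfp346, which binds double-stranded RNA, had -0.13. Zfp106, an RNA-binding protein, had 0.08 with its brightest probe and -0.58, -0.27 and -0.23 with the others, so that it too has no single direction.

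By position (mm8 probe coordinates), 19 clusters held at least 3 of the genes with neighbours no more than 500 kb apart. Of 98 tested genes in such clusters 9 were higher and 2 lower (11.2% called), and of 104 with no other Zfp gene within that distance 17 were higher and 4 lower (20.2%), where 31.8% of all genes were called. The 26 genes in pairs had 0 higher, against 18.3% of all genes, and 3 lower (11.5%, against 13.5%). Among the 3 is Zfp9, which passed the filter only through the unstarved group. The median log2 ratio was 0.13 in clusters and 0.08 for isolated genes, and the median brightness was 10.88 and 12.06 log2 units.

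In the 3 clusters with the most ZFP143 cores, genes of a cluster had ratios on both sides of 0. In the cluster from Zfp84 to Zfp146 (chr7:29490119-29870051, mm8) all 11 genes were tested. Zfp566 and Zfp146 fell, at -0.57 and -0.41, Zfp14 rose at 0.38 ± 0.14 (adjusted p = 0.0440), and the 8 others had ratios from -0.36 to 0.20 and did not pass. Zfp14 was higher mainly in replicate 1, with 0.68 and 0.59 on arrays 1 and 3 and 0.19 and 0.07 on arrays 2 and 4. In the cluster from Zfp180 to Zfp428 (chr7:23816242-24224394, mm8) 0 of 10 tested genes passed, and ratios lay between -0.21 and 0.27. On chromosome 13, from Zfp712 to Zfp273, 1 of 8 tested genes passed: Zfp273 rose by 0.45 ± 0.13 (adjusted p = 0.0161), with 0.69 and 0.64 on arrays 1 and 3, 0.23 and 0.24 on arrays 2 and 4, and one of its 3 probes at -0.10. Some smaller clusters, singled out after their values were seen, had ratios of 1 sign. All tested genes were above 0 from Zfp628 to Zfp580 on chromosome 7 (0.07 to 0.30, 0 called) and from Zfp811 to Zfp414 on chromosome 17 (0.05 to 0.45, 1 called higher). The same held from Zfp41 to Zfp707 on chromosome 15 (0.01 to 0.30, 0 called) and from Zfp263 to Zfp597 on chromosome 16 (0.12 to 0.22, 0 called). From Zfp469 (now Tnrc18) to Zfp316 on chromosome 5 all 3 were above 0 (0.22 to 0.60, 2 called higher). From Zfp397 to Zfp191 on chromosome 18 all 3 were below 0 (-0.24 to -0.06, 0 called). Of all 228 tested Zfp genes 149 were above 0, and 18.3% of all genes were called higher. Whether neighbours changed together was not tested.

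These 3 clusters held 22 of the 37 windows with the ZFP143 core: 8 of 11 promoter windows in the first, 7 of 10 in the second and 7 of 9 in the third. Over all clusters of at least 3 genes, 26 of 91 windows held the core (28.6%), against 11 of 111 for the other Zfp genes (9.91%). The 11 include Zfp58, which has no probe position and shares its window with Zfp817 of the chromosome 13 cluster. The 9 windows printed above thus include genes that fell (Zfp566, Zfp146), rose (Zfp14, Zfp273) or did not pass. Of 32 tested genes with the core 2 were higher and 2 lower (12.5% called, median log2 ratio 0.09), and of 154 with a window without it 21 were higher and 4 lower (16.2%, median 0.09), where 31.8% of all genes were called, 18.3% higher and 13.5% lower.

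**Figure D5:**
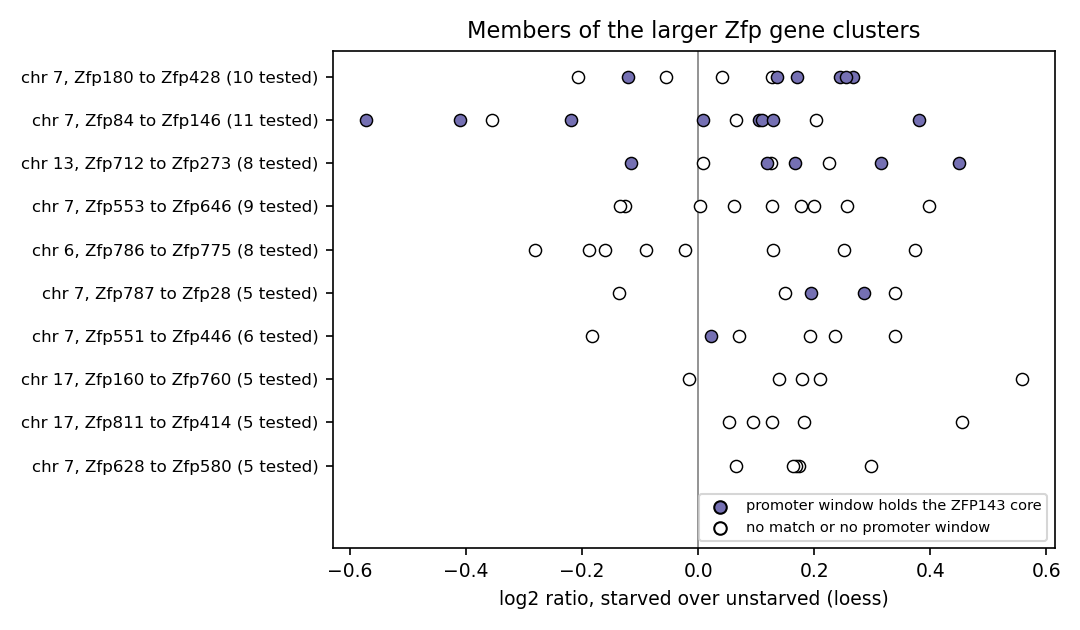
Log2 ratio of starved over unstarved cells after loess (x axis) of each tested gene in the 10 Zfp gene clusters with at least 5 genes (y axis), filled where the promoter window holds the core. Most filled points are in the 3 upper clusters, and they lie on both sides of 0, from -0.57 for Zfp566 to 0.45 for Zfp273.

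Other motifs were searched in the Zfp windows and in those of all genes. The E-box CACGTG was in 5.45% and 6.04%, the CCAAT box in 37.1% and 34.5%, the cyclic AMP element TGACGTCA in 2.48% and 1.60%, the forkhead letters GTAAACA in 1.49% and 3.06%, and the NRF1 site (GCGCAT, then GCGC) in 1.98% and 0.777%, each searched on both strands. The median GC content was 56.4% against 52.0%, and the observed over expected CpG ratio was 0.657 against 0.379, and those of other protein-coding genes had 55.2% and 0.533, with the NRF1 site in 1.05%.

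Genes of the machinery with which KRAB proteins act were called in both directions, each in a share below that of all genes. Of 28 tested genes 4 were higher (14.3%, against 18.3% of all genes) and 3 lower (10.7%, against 13.5%). Together 25% were called, against 31.8% of all genes, and the median log2 ratio was 0.06. The DNA methyltransferase Dnmt3a rose by 1.51 ± 0.13 (adjusted p = 8.83e-08, and 0.0406 with median centring), and Chaf1b, Chaf1a and Uhrf1, which act on newly replicated chromatin, by 0.70, 0.42 and 0.39. Pphln1, a subunit of the HUSH silencing complex, fell by 0.77, the histone methyltransferase Suv39h2 by 0.47 and the histone deacetylase Hdac2 by 0.40. Trim28 and Setdb1, the core of the complex, had -0.01 ± 0.13 (adjusted p = 0.966) and 0.11 ± 0.13 (adjusted p = 0.552).

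Zinc finger genes with the most similar names (Zbtb, Zscan, Zkscan, Zfp36 and Zfp names with letters) had 9 of 49 higher and 0 lower (18.4%), where 18.3% of all genes were higher and 13.5% lower, with a median log2 ratio of 0.18. Of Zfp genes that now carry a name outside the Zfp series 4 of 16 were higher and 0 lower, and of the 212 that kept such a name 22 were higher and 9 lower (25% and 14.6% called, against 31.8% of all genes). No test was made of these differences between lists.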

How the data were processed

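The members and lists were chosen with earlier results of these data known. Per the file headers, the deposited intensity of each spot (mean signal and median local background) came from Agilent Feature Extraction 9.5.3.1 and was neither background-subtracted nor dye-normalized, and the deposited processed intensity was background-subtracted and dye-normalized. The deposited value table holds linear intensity, with a scaling that the sources used here do not state. Both samples of a hybridisation had identical files (4 of 4), and each sample was read from the channel of its dye. All arrays share 1 slide and 1 scan.

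Mean signals were corrected by normexp (offset 50), normalized by loess within arrays in limma 3.58.1 (R 4.3.3) and turned to log2 starved over unstarved; no deposited log2 values were used. Control and flagged spots were left out, and 0 spots were saturated. A gene was its brightest probe among those that, in 1 group or both, were well above background on every array. Each replicate was the mean of its 2 arrays, and the 2 replicate ratios were fitted with lmFit and eBayes, two-sided, Benjamini-Hochberg over 16139 genes. With 1 residual degree of freedom the SE rests mostly on the common spread of the genes (prior SD 0.18, 15.9 prior degrees of freedom), which simulated data showed to be poorly determined. The ratio within an array pairs starved with unstarved RNA, as the series text states. The number of arrays limits precision.

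Named genes were the 10 with the largest rise and the 10 with the largest fall among those passing with 1 sign on 4 arrays (9 fell), those passing under both normalizations (0), those of known function, those whose probes were called in opposite directions (0), and those with a bound of at least 1.5-fold (0). Names were matched to RefSeq for 351 member probes by accession, 111 by symbol and 18 by synonym; 1 was unmatched. Classes by KRAB domain were planned and were not formed, since protein sequences were not used here. Whether a probe also binds a paralogue's transcript was not tested.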

Additional observations from a re-analysis of the deposited data

How the results depend on the processing

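Among the Zfp genes, 0 were called with median centring (0 higher, 0 lower), with 249 calls among all genes and 1 among the silencing machinery; centring over tested probes only, chosen after the data were seen, gave 5 (3 higher, 2 lower), 1605 and 2. Under the first, 22 of the 50 named genes kept their direction and lost their call, and under the second 17. Pairing arrays 1+2 and 3+4 in place of the labelled replicates gave 200 (131 higher, 69 lower), 14347 and 26, and pairing 1+4 and 2+3 gave 197 (132 higher, 65 lower), 14155 and 25, with the same log2 ratios; each such pair holds both dye orientations. Every probe as its own feature gave 63 of 402 (44 higher, 19 lower; 29.5% of all probes tested) and 12. Without the replicate block, as separate channels, 54 passed (40 higher, 14 lower; 36.5% of all genes) and 11; with the replicate block as a random term over 4 arrays 45 passed (33.4% of all genes), 31 of them among the 35. Leaving out an array gave 35 to 48 calls (31.0 to 34.3% of all genes), 26 to 34 higher and 8 to 14 lower, the most without array 1 (48, with 14 lower, and 34.3% of all genes); without replicate 1 or 2 the median was 0.02 or 0.13, with no test. Zfp106 changed to -0.60 with Agilent's processed signals and with the deposited value table (adjusted p = 0.00490 and 0.00432), where another of its probes was the brightest. The mean of all probes gave 27 calls (30.3% of all genes), 26 of them among the 35, and of the named genes Zfp146, Zfp219, Zfp239, Zfp313 and Zfp462 lost theirs. Processed signals gave 33 (31.2%) and the deposited values 36 (31.6%), 29 and 31 of them among the 35, and of the named genes Zfp219 and Zfp313 lost their call under both. Offset 10, no background correction and the filter in both groups gave 33 to 42 calls (30.9 to 33.2%), and no filter gave 40 of 251 (19.2%). Dim probes limit 23 genes to no test and 2 calls to a bound.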

Other observations

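In 13 Zfp genes the brightest probe was not called while another probe was when every probe was fitted as its own feature; these genes were singled out after their values were seen. The widest gaps were in Zfp386, with a probe at 0.70 (limma adjusted p = 5.84e-04) and its brightest at -0.19, in Zfp119, with 0.76 and -0.16, and in Zfp668, with 0.60 (adjusted p = 0.00216) and -0.14. The Zfp119 probe at 0.76 was above background on 4 starved and 2 unstarved arrays, so it was tested through the starved group only. The Zfp668 probe at 0.60 maps to the plus strand and its brightest probe to the minus strand (mm8). Their gap is therefore no disagreement over a single transcript. In Zfp451 the 2 called probes gave -0.45 and -0.48, against 0.18 for the brightest. Over 117 Zfp genes with several tested probes the median spread between probes was 0.15 on the log2 scale, and 34 had probes of opposite sign. Among the 35 called genes 21 had several tested probes, 13 of these had another called probe, and 3 (Zfp618, Zfp273 and Zfp146) had a probe of opposite sign.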
